A study of Mus musculus with 34 samples.

Results

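Synj1, Itsn1 and Vps26c are 3 genes of membrane traffic that lie in the segment of mouse chromosome 16 carried in an extra copy by Dp16 mice. The rule that picks them uses gene names alone, although the members were chosen with earlier results of these data known. They are 3 of 55385 genes in the files and 3 of 107 tested genes of the segment. Each of the 3 passed the filter on low counts, which left 17518 genes. Hippocampal RNA of 34 mice, all 6 months old, was sequenced in 8 groups. Tofacitinib was given to 4 5xFAD-Dp16, 5 5xFAD, 5 Dp16 and 5 wild-type mice, and sham gavage to 3 5xFAD-Dp16, 4 5xFAD, 3 Dp16 and 5 wild-type mice. Wild-type mice (WT) were C57BL/6J, Dp16 mice carry a duplication of the part of chromosome 16 that matches human chromosome 21 and model Down syndrome, and 5xFAD mice carry human transgenes that model familial Alzheimer's disease, under the neuronal Thy1 promoter. 5xFAD-Dp16 mice carry both. Tofacitinib, an inhibitor of Janus kinases, was dosed at 15 mg/kg by mouth every day for a month, and sham animals of all genotypes received its vehicle, methylcellulose at 0.5%, on the same schedule. The 15 animals with the duplication (Dp16 and 5xFAD-Dp16) are called carriers here and the 19 others non-carriers.

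Clathrin-mediated endocytosis retrieves membrane and proteins from the cell surface, and at synapses it recovers vesicle components after release. Synj1 encodes synaptojanin 1, a phosphoinositide phosphatase that acts when the clathrin coat is shed from a new vesicle. Itsn1 encodes intersectin 1, a scaffold that gathers coat, fission and actin regulators at the endocytic site, with a long neuronal form that activates the small GTPase Cdc42. Vps26c encodes a subunit of Retriever, which works with the COMMD and CCDC proteins of the Commander complex to return receptors from endosomes to the surface. The human counterparts of all 3 genes lie on chromosome 21, and enlarged early endosomes are a known feature of neurons in Down syndrome and Alzheimer's disease.

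On GRCm38 Synj1 (ENSMUSG00000022973.18) lies on the minus strand of chromosome 16 from 90936092 to 91011308, Itsn1 (ENSMUSG00000022957.20) on the plus strand from 91729281 to 91920597, and Vps26c (ENSMUSG00000022898.13) on the minus strand from 94497783 to 94526830. The promoters of the 3 genes are shown to describe them, and their part in the difference between carriers and non-carriers was not tested. Each window runs from 250 bases before to 50 bases after a start site and is written 5′ to 3′ on the gene's strand, from RefSeq on GRCm38.p6. Capitals mark the GC box (GGGCGG, or CCGCCC where it lies on the other strand) and, for Vps26c, the core of ETS family sites (CCGGAAG, or CTTCCGG on the other strand). For Synj1, which has a pair of windows, the one holding the larger number of annotated transcript starts (6) is printed.
Synj1, chr16:91011046-91011345, minus strand: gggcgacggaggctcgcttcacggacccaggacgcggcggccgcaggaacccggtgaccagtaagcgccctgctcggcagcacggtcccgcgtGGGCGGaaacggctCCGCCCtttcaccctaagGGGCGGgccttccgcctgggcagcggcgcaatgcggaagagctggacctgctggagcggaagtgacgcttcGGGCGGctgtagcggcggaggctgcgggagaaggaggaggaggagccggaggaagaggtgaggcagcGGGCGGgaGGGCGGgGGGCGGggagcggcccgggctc
Itsn1, chr16:91729121-91729420, plus strand: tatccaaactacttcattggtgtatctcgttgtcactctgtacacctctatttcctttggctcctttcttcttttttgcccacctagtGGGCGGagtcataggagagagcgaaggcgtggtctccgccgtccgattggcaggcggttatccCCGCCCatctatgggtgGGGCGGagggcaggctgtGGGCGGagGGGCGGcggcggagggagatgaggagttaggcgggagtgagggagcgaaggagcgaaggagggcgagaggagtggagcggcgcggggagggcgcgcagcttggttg
Vps26c, chr16:94526580-94526879, minus strand: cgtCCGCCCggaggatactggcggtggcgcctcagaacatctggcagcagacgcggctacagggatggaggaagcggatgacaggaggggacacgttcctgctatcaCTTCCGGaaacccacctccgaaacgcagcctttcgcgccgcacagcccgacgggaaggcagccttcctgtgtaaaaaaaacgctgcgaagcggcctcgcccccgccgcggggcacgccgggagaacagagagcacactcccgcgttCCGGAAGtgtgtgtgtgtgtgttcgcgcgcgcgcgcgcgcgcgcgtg

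The windows printed for Synj1 and Itsn1 held 6 and 4 GC boxes on the gene's strand and 1 each on the other, and neither held the ETS core. The Synj1 window that is not printed held 0 GC boxes and 30 CpG dinucleotides. The Vps26c window held 1 GC box, on the other strand, and 1 ETS core on each strand. Of all 32851 promoter windows of the same length, 35.7% held a GC box and 8.86% an ETS core on either strand, with no overlap between the motifs in the windows shown. The windows printed for Synj1, Itsn1 and Vps26c held 36, 23 and 40 CpG dinucleotides, against a median of 7 over all windows. These letter matches describe the windows and were not tested for binding. The motifs were chosen after the fold changes were known.

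Libraries held 14.9 to 21.1 M counts. The labels were checked against the data. The mean level of the other 104 tested segment genes was 3.67 to 3.97 log2 CPM in carriers, against 3.09 to 3.42 in non-carriers, where CPM is counts per M counts scaled with TMM. Thy1, whose promoter drives the transgenes, stood at 967 to 2875 CPM in 5xFAD and 5xFAD-Dp16 animals, against 782 to 934 CPM in all others. Hippocampal markers (19 genes of dentate gyrus, CA1 and CA3, all passing the filter) were low in 3 libraries. Their mean was 3.73 to 4.08 log2 CPM in WT tofacitinib library 3, 5xFAD tofacitinib library 2 and 5xFAD-Dp16 sham library 4, against 5.42 to 6.05 in the 31 others. In that order the thalamus and habenula list was at 3.66, 6.97 and 5.49 log2 CPM in these 3 libraries. The striatum list was at 5.95, 7.13 and 4.05 log2 CPM. Called results, interactions, ratios and correlations that moved without these 3 libraries are given both ways. Library 1 of the 5xFAD-Dp16 tofacitinib group, which is not one of the 3, held the highest thalamus and habenula list (5.28 log2 CPM) and striatum list (4.81) of the 31, whose medians over all libraries were 3.81 and 3.19.

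Per kilobase of gene, Synj1 was the most abundant of the 3. The deposited RPKM averaged 76.7 ± 7.18 for Synj1 in carriers (SD, n = 15) and 48.6 ± 6.24 in non-carriers (n = 19). For Itsn1 it averaged 15.6 ± 1.61 RPKM in carriers and 10.9 ± 1.02 in non-carriers. For Vps26c it was 15.7 ± 2.75 RPKM in carriers and 9.53 ± 1.12 in non-carriers. Itsn1 thus lay near Vps26c per length while drawing far more reads, since the length behind its RPKM was 19992 bases, against 7234 for Synj1 and 2547 for Vps26c. Read counts behind single values were 4082 to 11723 for Synj1, 2778 to 6820 for Itsn1 and 309 to 993 for Vps26c, so Vps26c had the largest counting error.

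**Figure D1:**
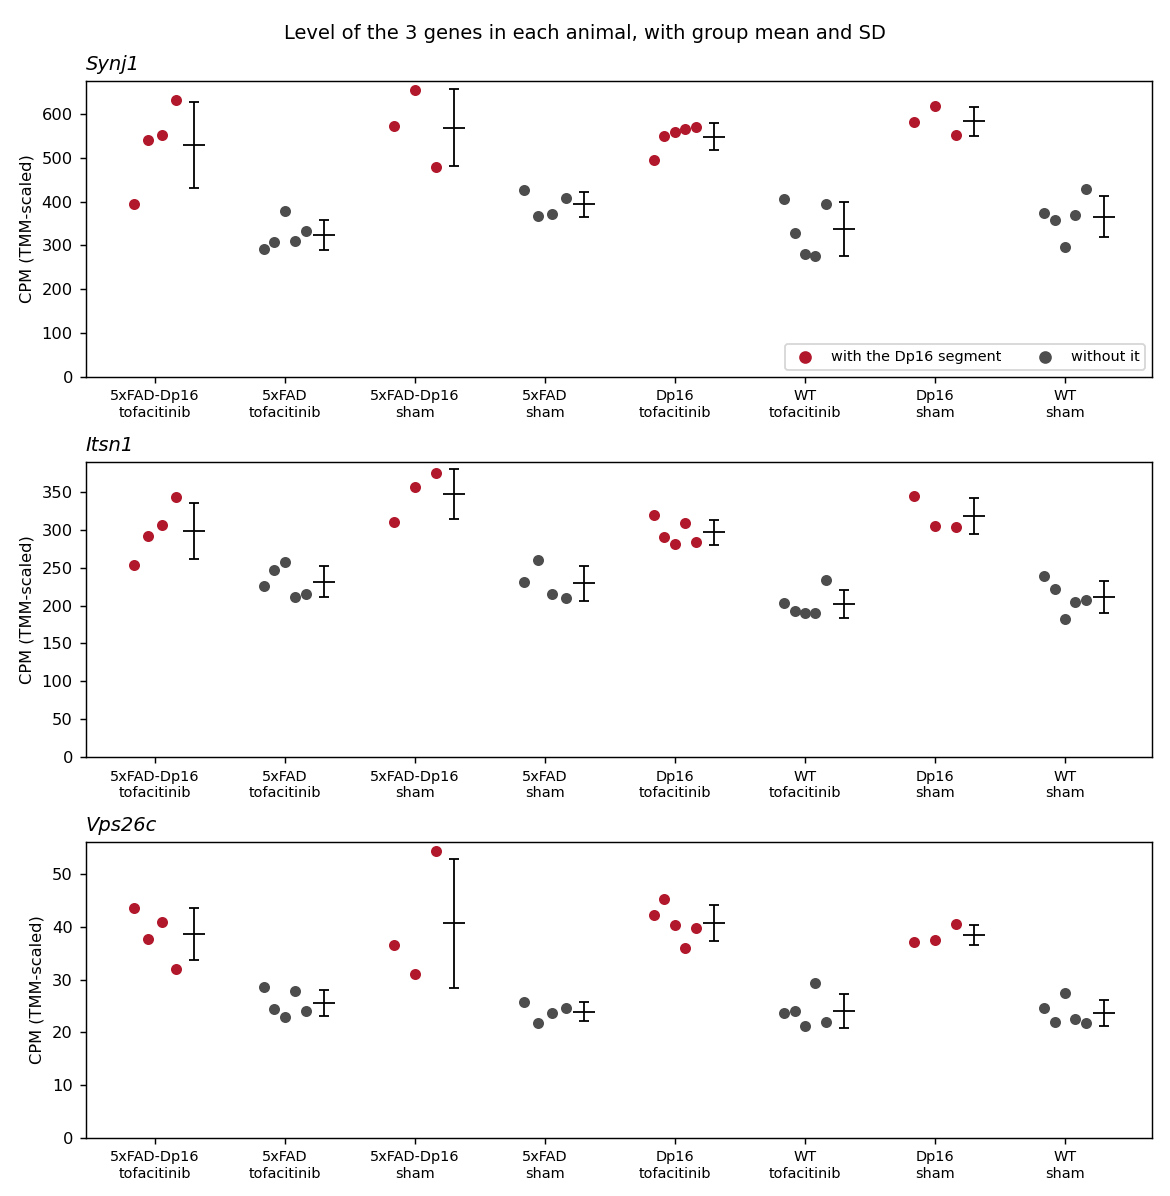
CPM of Synj1, Itsn1 and Vps26c in every animal (points) by group, with the group mean and SD (bars), axes from 0. Carriers (red) lie above non-carriers (grey), except for library 1 of the 5xFAD-Dp16 tofacitinib group in Synj1 and Itsn1, and Vps26c is highest in 5xFAD-Dp16 sham library 4, at 54.5 CPM.

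The synaptojanin gene Synj1 stood higher in carriers, with a median of 560 CPM (394 to 654), against 368 CPM (277 to 429) in non-carriers. Of the 15 carriers, 14 lay above all 19 non-carriers. Under tofacitinib, Synj1 in 5xFAD-Dp16 libraries 1 to 4 was at 394, 540, 552 and 632 CPM, against 293, 307, 379, 310 and 332 CPM in 5xFAD libraries. Library 1 of the 5xFAD-Dp16 animals was the lowest carrier of all and still lay above every 5xFAD animal on the drug. Under sham, Synj1 was at 573, 654 and 479 CPM in 5xFAD-Dp16 libraries (1, 2 and 4), against 428, 368, 373 and 408 CPM in 5xFAD libraries. The lowest of these carriers was library 4, the one low in hippocampal markers. In Dp16 mice on tofacitinib Synj1 was at 495, 549, 560, 566 and 571 CPM, against 405, 328, 280, 277 and 395 CPM in WT mice on tofacitinib. In Dp16 sham animals it was at 581, 618 and 551 CPM, against 373, 359, 296, 370 and 429 CPM in WT sham animals. In none of the 4 settings did the groups overlap. For this gene and those below, the share of all genes without overlap by setting was not counted. The share with 14 of 15 carriers above all 19 non-carriers was not counted either. Of all 17518 genes, 0.217% and 0.268% passed the edgeR test of 5xFAD-Dp16 against 5xFAD under tofacitinib and under sham, 0.268% and 0.308% that of Dp16 against WT, and 1.38% that over all animals.

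The fold change of Synj1 was near that of the gene's copy number. Over all animals it was 1.57-fold higher in carriers (95% interval 1.43 to 1.73; log2 0.65, SE 0.07, adjusted p = 3.79e-08), an interval that holds the 1.5-fold ratio of 3 copies to 2. By setting, the log2 difference was 0.71 for 5xFAD-Dp16 against 5xFAD under tofacitinib (adjusted p = 0.00279, or 0.102 in a fit on these groups alone) and 0.53 under sham (adjusted p = 0.147). For Dp16 against WT it was 0.70 under tofacitinib (adjusted p = 0.00118) and 0.67 under sham (adjusted p = 0.0128). The sham comparison on the 5xFAD background was thus the one that did not pass, and without the 3 libraries low in hippocampal markers its log2 difference was 0.67 (adjusted p = 0.0483). The sham comparison of Dp16 with WT lost its call when any 1 of the 3 Dp16 sham libraries was left out, with values of 0.63 to 0.71 and adjusted p up to 0.111.

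The intersectin scaffold gene Itsn1 had a median of 307 CPM in carriers (254 to 374), against 215 CPM (183 to 260) in non-carriers. Again 14 of 15 carriers lay above all non-carriers, a separation whose share over all genes was not counted. Under tofacitinib, Itsn1 in 5xFAD-Dp16 libraries 1 to 4 was at 254, 292, 307 and 343 CPM, against 226, 247, 258, 211 and 216 CPM in 5xFAD libraries. Library 1 fell just within the 5xFAD range, the sole overlap among the 12 comparisons of 3 genes in 4 settings. Under sham, Itsn1 was at 310, 356 and 374 CPM in 5xFAD-Dp16 libraries, against 232, 260, 215 and 210 CPM in 5xFAD libraries. In Dp16 mice on tofacitinib it was at 319, 290, 281, 308 and 283 CPM, against 204, 193, 190, 190 and 234 CPM in WT mice on tofacitinib. In Dp16 sham animals it was at 345, 304 and 304 CPM, against 238, 222, 183, 204 and 208 CPM in WT sham animals. These 3 settings separated the groups without overlap.

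Itsn1 had the smallest fold change of the 3 genes and the smallest error. Over all animals it was 1.44-fold higher in carriers (95% interval 1.34 to 1.55; log2 0.53, SE 0.05, adjusted p = 6.37e-09), which also holds 1.5-fold. By setting, the log2 difference was 0.37 for 5xFAD-Dp16 against 5xFAD under tofacitinib (adjusted p = 0.148) and 0.60 under sham (adjusted p = 0.00462). For Dp16 against WT it was 0.55 under tofacitinib (adjusted p = 0.000621) and 0.59 under sham (adjusted p = 0.00179). Without 5xFAD-Dp16 tofacitinib library 1, the setting that did not pass had a log2 difference of 0.44 (adjusted p = 0.0237). DESeq2 called it with all libraries, at 0.37 (adjusted p = 0.0428). Without 5xFAD-Dp16 sham library 4, the sham difference on the 5xFAD background was 0.53 (adjusted p = 0.0894).

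The Retriever subunit gene Vps26c had a median of 39.9 CPM in carriers (31.1 to 54.5), against 24.0 CPM (21.2 to 29.3) in non-carriers, and all 15 carriers lay above all 19 non-carriers. Under tofacitinib, Vps26c in 5xFAD-Dp16 libraries 1 to 4 was at 43.7, 37.8, 41.0 and 32.1 CPM, against 28.7, 24.4, 23.0, 27.8 and 24.0 CPM in 5xFAD libraries. Under sham, Vps26c was at 36.6, 31.1 and 54.5 CPM in 5xFAD-Dp16 libraries, against 25.8, 21.7, 23.8 and 24.5 CPM in 5xFAD libraries. The value of 54.5 CPM belongs to library 4 and was the highest of all 34. In Dp16 mice on tofacitinib Vps26c was at 42.4, 45.4, 40.4, 36.0 and 39.9 CPM, against 23.7, 24.1, 21.2, 29.3 and 22.0 CPM in WT mice on tofacitinib. In Dp16 sham animals it was at 37.1, 37.5 and 40.6 CPM, against 24.7, 21.9, 27.5, 22.6 and 21.7 CPM in WT sham animals. No setting had an overlap between groups.

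Vps26c had the largest fold change of the 3. Over all animals it was 1.63-fold higher in carriers (95% interval 1.49 to 1.79; log2 0.71, SE 0.07, adjusted p = 4.25e-09), and the lower end of the interval lies just under 1.5-fold. By setting, the log2 difference was 0.60 for 5xFAD-Dp16 against 5xFAD under tofacitinib (adjusted p = 0.0171) and 0.77 under sham (adjusted p = 0.00466). For Dp16 against WT it was 0.76 under tofacitinib (adjusted p = 0.000321) and 0.70 under sham (adjusted p = 0.00786). The sham value on the 5xFAD background rested on library 4: without it the log2 difference was 0.46 (adjusted p = 0.578), and without all 3 libraries low in hippocampal markers 0.46 (adjusted p = 0.440). The Dp16 sham comparison lost its call without Dp16 sham library 3, at 0.65 (adjusted p = 0.121). The tofacitinib comparison on the 5xFAD background lost it without any of 5 of its 9 libraries, namely 5xFAD libraries 2, 4 and 6 and 5xFAD-Dp16 libraries 1 and 3, with values of 0.53 to 0.58.

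In all, 3 of 3 genes passed the test over all animals, where 1.38% of all tested genes passed. By setting, 3 of 3 passed for Dp16 against WT under tofacitinib (0.268% of all genes) and under sham (0.308%). For 5xFAD-Dp16 against 5xFAD, 2 of 3 passed under tofacitinib (0.217%) and 2 of 3 under sham (0.268%). Over 3 genes and 4 settings, 11 of 12 comparisons had no overlap between groups. The share of all genes without overlap was not counted by setting, and groups of 3 to 5 animals can separate by chance. Together 10 of 12 comparisons passed. In fits on the compared groups alone, 4 of these calls were lost, all on the 5xFAD background: Synj1 (adjusted p = 0.102) and Vps26c (0.289) under tofacitinib, and Itsn1 and Vps26c (each 0.333) under sham. The segment by transgene interaction, which tests whether the segment effect differed between the backgrounds with and without 5xFAD, was called for 0 of 3 genes by edgeR and by DESeq2, and 0 of 3 had an unadjusted p under 0.05. Its log2 values were -0.07 for Synj1 (95% interval -0.34 to 0.20), -0.09 for Itsn1 (-0.29 to 0.11) and -0.05 for Vps26c (-0.31 to 0.21). Without the 3 libraries low in hippocampal markers they were 0.016, -0.09 and -0.18 for the same genes. For that interaction edgeR called 0% of all genes, with 851 at an unadjusted p under 0.05, and DESeq2 called 2. This interaction averages over tofacitinib and sham, and the difference between the drug settings within the 5xFAD background was not tested.

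**Figure D2:**
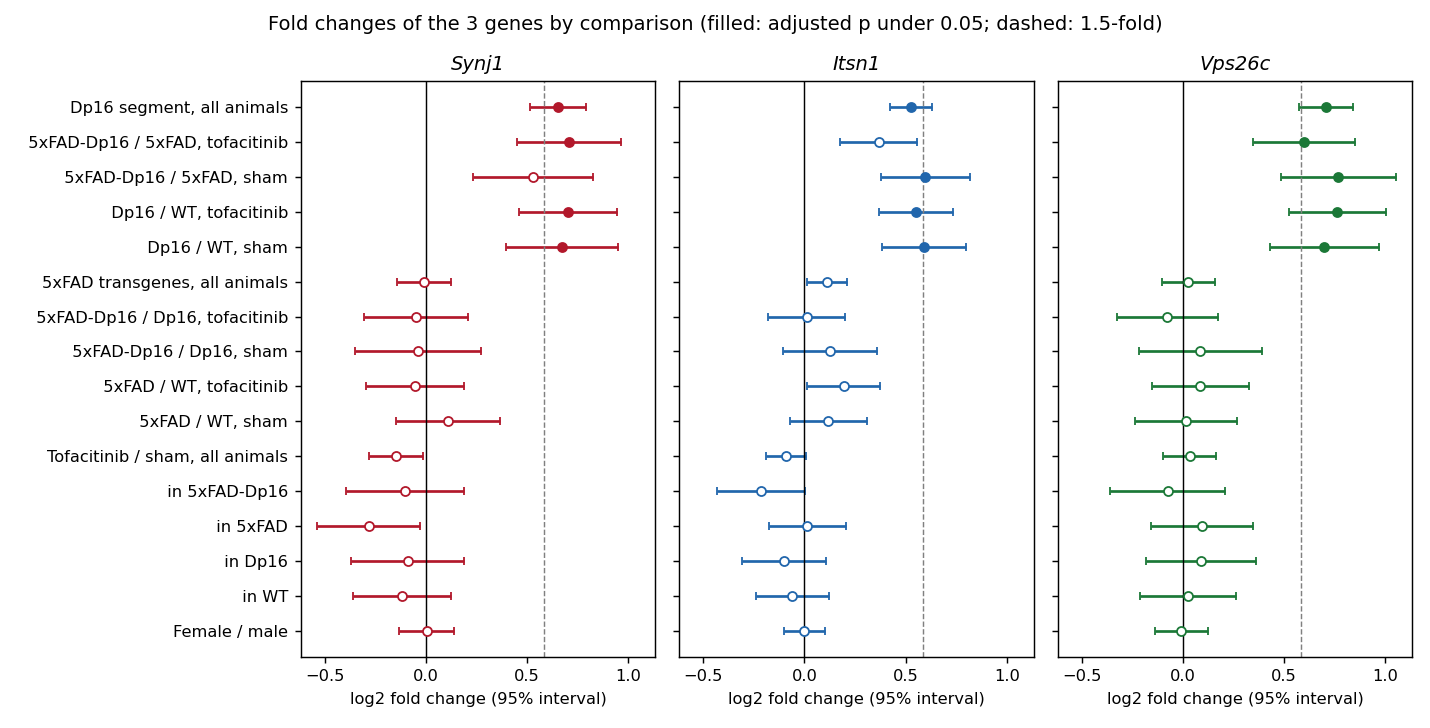
Log2 fold change of each gene in 16 comparisons, with 95% intervals from the edgeR fit. Filled points passed an adjusted p of 0.05 and the dashed line marks 1.5-fold. Filled points occur in the segment comparisons alone, 3 over all animals and 10 of 12 by setting.

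In each of the 3 genes the 4 carrier groups had the 4 highest group means. In order of means, neighbouring groups differed by less than the larger of their SDs everywhere but at 1 step, that between the lowest carrier group and the highest non-carrier group. For Synj1 that step was 135 CPM, between 5xFAD-Dp16 tofacitinib animals (529 ± 99.2 CPM, n = 4) and 5xFAD sham animals (394 ± 28.7 CPM, n = 4). For Itsn1 it was 64.7 CPM, between Dp16 tofacitinib animals (296 ± 16.8 CPM, n = 5) and 5xFAD tofacitinib animals (232 ± 20.2 CPM, n = 5). For Vps26c it was 12.8 CPM, between Dp16 sham animals (38.4 ± 1.90 CPM, n = 3) and 5xFAD tofacitinib animals (25.6 ± 2.49 CPM, n = 5).

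The 3 genes changed much as the rest of their segment did. Of the other 104 tested segment genes, 68 (65.4%) passed as higher in carriers over all animals and 0 as lower. The 104 genes had a median log2 difference of 0.56 (interquartile range 0.47 to 0.64), while the median over all tested genes was 0.00. By the size of the difference Vps26c ranked 17, Synj1 27 and Itsn1 67 of 107. Full separation of 15 carriers above 19 non-carriers, as seen for Vps26c, was found in 25 of 107 segment genes (23.4%) and in 26 of all 17518 tested genes (0.148%).

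The nearest tested protein-coding neighbours rose as well. On either side of Synj1, Cfap298 was higher by a log2 difference of 0.56 (adjusted p = 1.07e-08) and Paxbp1 by 0.48 (adjusted p = 4.81e-05). On either side of Itsn1, Cryzl1 was higher by 0.58 (adjusted p = 2.37e-06) and Atp5o, a subunit of the mitochondrial ATP synthase, by 0.53 (adjusted p = 4.49e-07). On either side of Vps26c, the ubiquitin ligase gene Ttc3 was higher by 0.53 (adjusted p = 2.92e-12) and the kinase gene Dyrk1a by 0.54 (adjusted p = 5.46e-11). Among other known genes of the segment, the amyloid precursor gene App was higher by 0.56 and the calcineurin regulator Rcan1 by 0.50. Gene models that overlap the 3 genes, antisense ones included, held a mean of under 1 count per library.

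**Figure D3:**
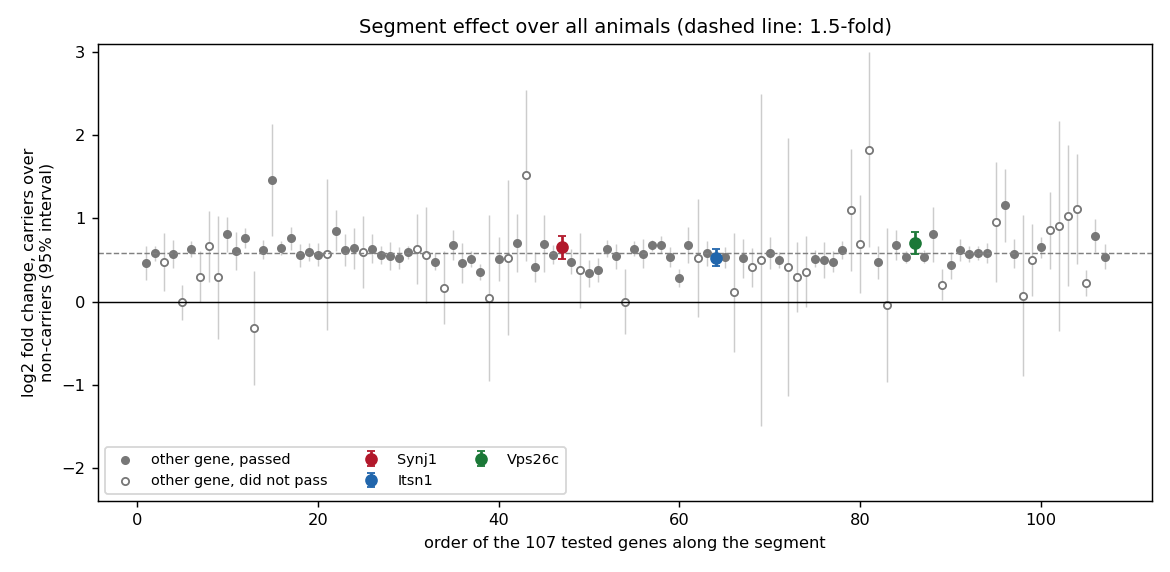
Log2 fold change of the 107 tested segment genes (carriers over non-carriers, all animals, 95% intervals) in their order along the segment. Synj1 (red, 0.65), Itsn1 (blue, 0.53) and Vps26c (green, 0.71) lie near the dashed line of 1.5-fold, as do most of the other genes, whose median is 0.56.

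Marker lists of other cell types were set beside these values. The choroid plexus list (7 of 7 genes tested) had a median of 3.80 log2 CPM in carriers (0.10 to 6.31), against 1.51 (-0.64 to 6.16) in non-carriers. This list holds Kcne2, which itself lies in the segment. The excitatory neuron list (5 of 5) had a median of 8.50 in carriers (3.88 to 8.83), against 8.58 (3.41 to 8.88) in non-carriers. The oligodendrocyte list (6 of 6) had a median of 8.90 in carriers (8.62 to 9.92), against 8.73 (8.33 to 9.66) in non-carriers. Medians in carriers and non-carriers were 9.03 and 8.93 for the astrocyte list and 5.61 and 5.72 for the microglia list. They were 6.41 and 6.47 for inhibitory neurons and 5.38 and 5.44 for endothelium. Without the 3 libraries low in hippocampal markers they were 3.35 and 0.62 for choroid plexus, 8.52 and 8.58 for excitatory neurons and 8.85 and 8.70 for oligodendrocytes. The part of these differences in the levels of the 3 genes was not tested. In bulk tissue, fewer cells of a type and less RNA per cell cannot be told apart.

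Within groups, Synj1 and Vps26c deviated in opposite directions. After the group mean was taken from each animal's log2 CPM, Synj1 and Vps26c had a Pearson r of -0.61 over 34 animals (permutation within groups, two-sided, p = 0.00202, adjusted over 3 pairs 0.00606) and a Spearman rho of -0.50 (p = 0.00967, adjusted 0.0290). Library 1 of the 5xFAD-Dp16 tofacitinib group showed it, with the lowest Synj1 (394 CPM) and the highest Vps26c (43.7 CPM) of its group, as did 5xFAD-Dp16 sham library 4 (479 and 54.5 CPM). The excitatory neuron list was at 7.74 log2 CPM in the first of these libraries, the lowest outside the 3 low ones, and at 3.88 in the other. In both, the thalamus and striatum lists were above their medians, as given above, and the part of these markers in the relation was not tested. Without the 2 animals farthest from the median of Synj1, r was -0.56. Without the 3 libraries low in hippocampal markers it was -0.72, and it was -0.77 within the 15 carriers and -0.47 within the 19 non-carriers. These relations were chosen after the values had been seen, and the 2 genes share each library's scaling.

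The other pairs were less firm. Synj1 and Itsn1 had an r of 0.45 (permutation p = 0.0322, adjusted 0.0484) and a rho of 0.37 (p = 0.0650, adjusted 0.0664). Its r was 0.28 without the 2 animals farthest from the median of Synj1 and 0.57 without the 3 libraries low in hippocampal markers. Itsn1 and Vps26c had an r of -0.31 (permutation p = 0.139, adjusted 0.139) and a rho of -0.37 (p = 0.0664, adjusted 0.0664), with an r of -0.21 without the 2 farthest animals and -0.63 without the 3 libraries low in hippocampal markers.

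**Figure D4:**
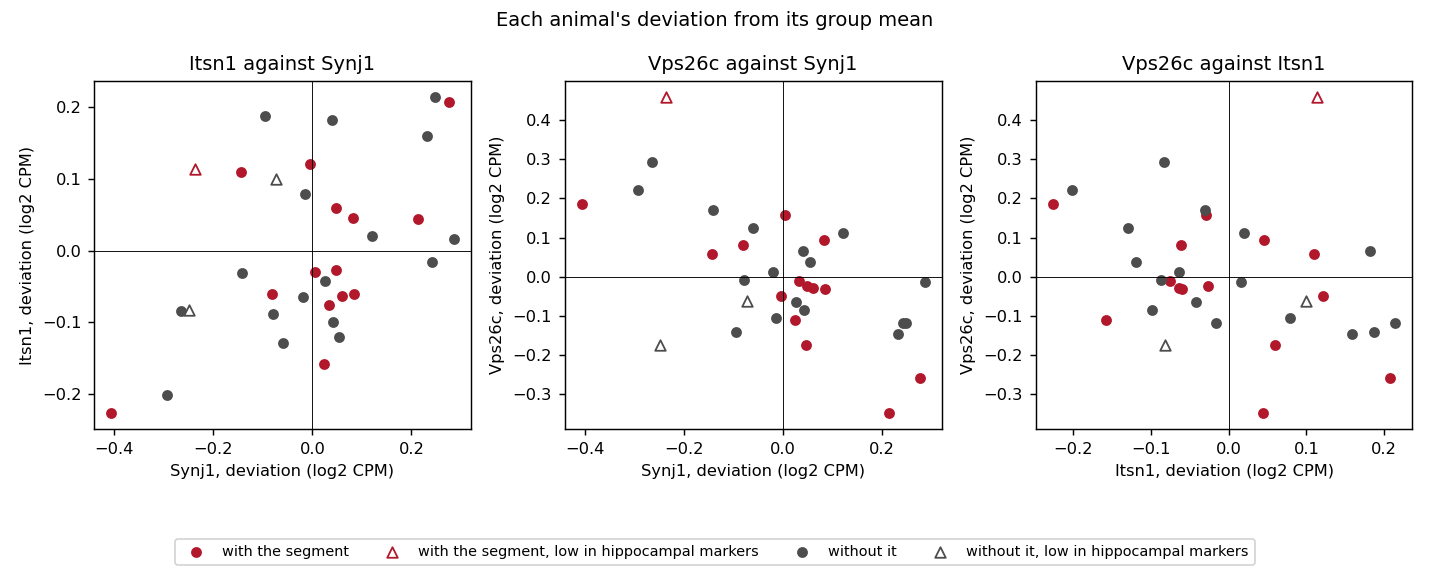
Deviation of each animal from its group mean, in log2 CPM, for the 3 pairs of genes. Red points are carriers, grey points non-carriers and open triangles the 3 libraries low in hippocampal markers; the points of Vps26c against Synj1 run from upper left to lower right (r = -0.61).

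The balance of the 3 genes to each other was not shown to shift with the segment. The log2 ratio of Synj1 to Itsn1 in RPKM was 2.30 ± 0.17 in carriers (SD, n = 15) and 2.16 ± 0.20 in non-carriers (n = 19). Averaged over settings, the ratio differed by 0.13 (permutation within settings, two-sided, p = 0.0650, adjusted over 3 ratios 0.0975). The ratio of Itsn1 to Vps26c was 0.00 ± 0.26 in carriers and 0.19 ± 0.23 in non-carriers, a difference of -0.17 (permutation p = 0.0584, adjusted 0.0975). For Synj1 to Vps26c it was 2.30 ± 0.35 in carriers and 2.35 ± 0.30 in non-carriers, a difference of -0.04 (permutation p = 0.718). Without the 3 libraries low in hippocampal markers the difference was 0.15 for Synj1 to Itsn1, -0.11 for Itsn1 to Vps26c and, with its sign turned, 0.04 for Synj1 to Vps26c. None of the 3 ratios passed, and this test was also chosen after the fold changes were known.

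The 5xFAD transgenes went with no called change of the 3 genes. Over all animals edgeR and DESeq2 called 0 of 3, where edgeR called 1.59% of all genes. Itsn1 alone had an unadjusted p under 0.05, with a log2 difference of 0.11 between animals with and without the transgenes (95% interval 0.01 to 0.21, edgeR adjusted p = 0.400). The intervals of the others were -0.14 to 0.13 for Synj1 and -0.10 to 0.16 for Vps26c; the lower ends of the segment effect's intervals were 0.52 and 0.57. For 5xFAD-Dp16 against Dp16, 0 of 3 passed under tofacitinib (0.0285% of all genes) and 0 of 3 under sham (0% of all genes, with 1275 at an unadjusted p under 0.05 and 11 called by DESeq2). For 5xFAD against WT, 0 of 3 passed under tofacitinib (0.32% of all genes) and 0 of 3 under sham (0.445%). Within these 4 settings 1 value had an unadjusted p under 0.05, that of Itsn1 in 5xFAD against WT under tofacitinib (log2 0.19, edgeR adjusted p = 0.641), and DESeq2 called 0. The groups overlapped in all 12 comparisons.

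Tofacitinib also went with no called change. Over all genotypes 0 of 3 passed by edgeR and by DESeq2, where edgeR called 0% of all genes (1354 at an unadjusted p under 0.05) and DESeq2 called 2. Synj1 alone had an unadjusted p under 0.05, with a log2 difference of -0.15 (95% interval -0.28 to -0.01, edgeR adjusted p = 0.625). Itsn1 differed by -0.09 (-0.19 to 0.01) and Vps26c by 0.03 (-0.10 to 0.16), or by 0.12 without the 3 libraries low in hippocampal markers. By genotype, 5xFAD animals gave the largest value for Synj1, with 293 to 379 CPM under tofacitinib against 368 to 428 CPM under sham (log2 -0.28, edgeR adjusted p = 0.788), and the groups overlapped. The range under tofacitinib includes library 2, which was low in hippocampal markers.

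In each genotype 0 of 3 genes passed for tofacitinib by edgeR and by DESeq2. Of all genes edgeR called 0% in 5xFAD-Dp16 (1307 at an unadjusted p under 0.05, 3 called by DESeq2), 0% in 5xFAD (1017 and 5), 0.00571% in Dp16 and 0% in WT animals (491 and 1). Unadjusted, 1 of 3 was under 0.05 in 5xFAD animals and 0 of 3 in each other genotype. The tofacitinib by segment interaction was called for 0 of 3 genes by either tool and 0 of 3 had an unadjusted p under 0.05, with log2 values of 0.10 for Synj1, -0.14 for Itsn1 and -0.05 for Vps26c. Without the 3 libraries low in hippocampal markers the signs for Synj1 (-0.0031) and Vps26c (0.07) turned and Itsn1 was at -0.10. For it edgeR called 0% of all genes (1148 at an unadjusted p under 0.05) and DESeq2 called 3. Between female and male animals 0 of 3 passed by edgeR and DESeq2, and 0 of 3 had an unadjusted p under 0.05 (0.0628% of all genes). The log2 differences between the sexes were 0.00 for Synj1 and Itsn1 and -0.01 for Vps26c, with intervals that stayed within 0.14 of 0.

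The paralogs of the 3 genes lie outside the segment and did not pass. Synj2, the second synaptojanin, averaged 11.1 ± 1.30 RPKM in carriers and 11.2 ± 1.55 in non-carriers, with a log2 difference of -0.05 (adjusted p = 0.836). Itsn2, the second intersectin, averaged 8.08 ± 0.887 RPKM in carriers and 8.12 ± 0.715 in non-carriers, with a log2 difference of 0.01 (adjusted p = 0.974). Per length, Synj1 was thus well above Synj2 and Itsn1 above Itsn2 in either set of animals. The length behind the RPKM was 19992 bases for Itsn1 and 6080 for Itsn2. In CPM, Itsn1 was at 254 to 374 in carriers and 183 to 260 in non-carriers, against 37.0 to 58.7 and 39.1 to 56.6 for Itsn2. Vps26a and Vps26b, which serve the related retromer complex, averaged 24.1 ± 1.75 and 37.9 ± 3.54 RPKM in carriers, against 23.8 ± 2.72 and 38.5 ± 3.13 in non-carriers, with log2 differences of 0.02 and -0.05 (adjusted p = 0.915 and 0.766). Of the 4 paralogs edgeR and DESeq2 called 0 in the segment effect, with 0 at an unadjusted p under 0.05.

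Genes that work with the 3 outside the segment were followed in 7 lists of 121 distinct genes, of which 120 were tested. In the segment effect over all animals 1 of 120 (0.833%) passed, lower in carriers, beside 1.38% of all genes. An unadjusted p under 0.05 was found for 10 of 120, beside 2241 of all 17518 genes. The median log2 difference of the 120 genes was 0.00, as over all genes. In the transgene and tofacitinib effects 0 of 120 passed by edgeR and by DESeq2, where edgeR called 1.59% and 0% of all genes. At an unadjusted p under 0.05 were 15 and 9 of 120, beside 1848 and 1354 of all 17518 genes.

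The gene that passed was Snx17, a sorting nexin that hands receptor cargo to Retriever, the complex of which Vps26c is a subunit. It lies on chromosome 5 (31193227 to 31199143, GRCm38). Under tofacitinib it was at 63.9, 64.2, 56.8 and 58.3 CPM in 5xFAD-Dp16 animals, against 70.2, 73.4, 67.1, 66.1 and 74.1 CPM in 5xFAD animals. Under sham it was at 57.4, 56.0 and 62.9 CPM in 5xFAD-Dp16 animals, against 68.1, 67.7, 71.0 and 67.6 CPM in 5xFAD animals. In both pairs every carrier was below every non-carrier, a separation whose share over all genes was not counted. In Dp16 mice on tofacitinib it was at 58.9, 61.3, 63.3, 66.5 and 61.8 CPM, against 69.6, 74.7, 65.6, 62.1 and 67.4 CPM in WT mice on tofacitinib, with an overlap. In Dp16 sham animals it was at 55.6, 54.3 and 60.5 CPM, against 73.5, 70.2, 71.9, 66.9 and 71.9 CPM in WT sham animals.

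Over all animals Snx17 was lower in carriers by a log2 difference of -0.22 (SE 0.03, 95% interval -0.29 to -0.15, adjusted p = 7.52e-05). Of the 15 carriers 10 lay below all 19 non-carriers, a separation whose share over all genes was not counted. Snx17 passed under each setting of the fit and without any 1 library, with values of -0.24 to -0.21. By setting, it passed in Dp16 against WT sham animals (-0.32, adjusted p = 0.0259), a call that was lost in 6 of 8 refits without 1 library, at -0.33 to -0.29. The calls lost were those without WT sham libraries 1, 2, 3 or 5 or Dp16 sham libraries 1 or 2. It did not pass in Dp16 against WT under tofacitinib (-0.13, adjusted p = 1.00) or in 5xFAD-Dp16 against 5xFAD under tofacitinib (-0.21, adjusted p = 0.449) or sham (-0.23, adjusted p = 0.219). Snx17 was the 1 gene called among 120 tested genes of 7 lists (0.833%), beside 1.38% of all genes. Of the 15 tested Commander genes 0 others passed.

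The lists can be ordered by the role of their genes. Of 22 coat and adaptor genes, which build the clathrin pit, 0 passed in the segment effect, with a median log2 difference of 0.01 and a range of -0.16 to 0.06. The smallest p belonged to Fcho1, an early pit protein (-0.16, adjusted p = 0.143). Of 20 genes for fission, uncoating and phosphoinositide enzymes, the step at which synaptojanin acts, 0 passed (median -0.01, range -0.16 to 0.15). Inpp5f, another inositol phosphatase, had the smallest p (0.15, adjusted p = 0.309). Of 10 intersectin partners in signalling and actin 0 passed (median 0.01), led by Sos1, a Ras activator (0.15, adjusted p = 0.354). Of 18 synaptic vesicle proteins 0 passed (median -0.02, range -0.28 to 0.06), led by Rab3a, a vesicle GTPase (-0.07, adjusted p = 0.509).

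In the endosome, of 14 retromer, sorting nexin and WASH genes 0 passed (median 0.02, range -0.08 to 0.13), led by Snx2, a retromer-linked nexin (0.13, adjusted p = 0.182). Of 21 early and recycling endosome genes 0 passed (median 0.03, range -0.08 to 0.11), led by Rab5a, the GTPase of early endosomes (0.09, adjusted p = 0.323). DESeq2 called 0 in each list but that of the Commander genes. At an unadjusted p under 0.05 there were 1 coat gene, 1 gene of fission and uncoating, 1 intersectin partner, 0 vesicle genes, 3 of the retromer list and 2 of the early endosome list. The Commander list had 2, Snx17 among them, with a median of 0.00 and a range of -0.22 to 0.14. Of all 17518 genes 2241 had an unadjusted p under 0.05 in the segment effect.

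**Figure D5:**
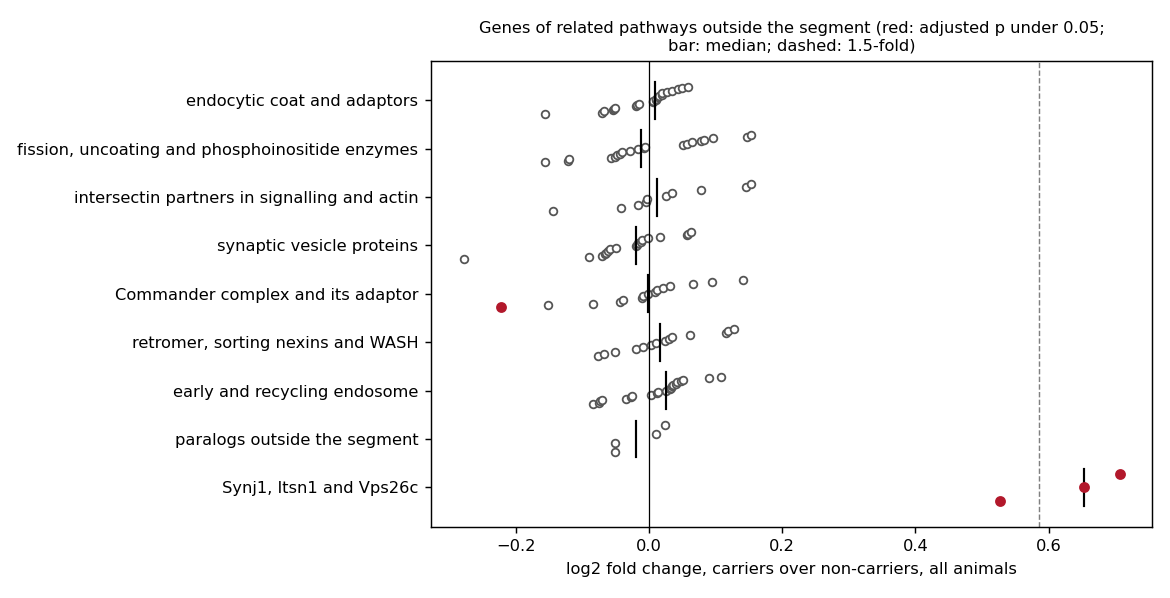
Log2 fold change (carriers over non-carriers, all animals) of each tested gene of 7 pathway lists and of the paralogs outside the segment, with the 3 triplicated genes in the lowest row. Red points passed an adjusted p of 0.05, and bars are medians; Snx17, at -0.22, is the red point outside the lowest row.

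The tested genes most like each of the 3 nearly all lay in the segment, though not next to them. Likeness was the root mean square difference over 34 libraries in log2 CPM centred on each gene's mean, a measure that the step between carriers and non-carriers enters. Closest to Synj1 were Nrip1, Dyrk1a and Dscam (each 0.14), while the median over all genes was 0.48. Closest to Itsn1 were Scaf4 and Dscam (each 0.14) and Bach1 (0.15), with a median of 0.41 over all genes. Closest to Vps26c were Wrb (0.16), Tmem50b and Mrpl39 (each 0.17), with a median of 0.48. Of the 10 closest genes, 10 lay in the segment for Synj1, 9 for Itsn1 and 10 for Vps26c. The 10 closest had a median length behind their RPKM of 7756 bases for Synj1 and 7540 for Itsn1, and of 2321 bases for Vps26c, against 3172 for the other tested segment genes. Among the 3 themselves, Itsn1 stood 0.20 from Synj1 and 0.25 from Vps26c, and Vps26c stood 0.31 from Synj1.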

How the data were processed

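Poly(A) RNA of 34 hippocampi was made into strand-specific libraries and read as pairs of 150 bp, per the labels' protocols. The authors deposited whole read counts per gene and RPKM values, and the deposited RPKM equalled the count over the library total and a length per gene. The build GRCm38 and, among tools, HTSeq 0.6.1 and HISAT2 2.1.0 stand in the submitters' processing notes without a role. Whether counting used the strand is not stated in the labels.

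Groups, numbers and sex came from the labels, and the design text names 1 more 5xFAD tofacitinib and 1 more 5xFAD-Dp16 sham animal, not analysed here. edgeR 4.0.16 (R 4.3.3; quasi-likelihood F-test, robust, TMM, filterByExpr by group) fitted 34 libraries once, with 8 group means and sex, leaving 25 residual degrees of freedom. The 18 contrasts were two-sided, with Benjamini-Hochberg adjustment over 17518 genes and a threshold of 0.05. Effects over all animals are means of 4 contrasts. Log2 levels used a prior count of 2. Alternatives were DESeq2 1.42.0, its size factors, no filter, no sex term, the compared groups alone, a fit on replicate numbers, and fits without the 3 libraries or any 1 library.

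The members and lists were chosen with earlier results of these data known. The genes named were the 3 members, their paralogs, list genes past the threshold (else the smallest p of the segment effect), the 3 most alike and the nearest neighbours, with App, Dyrk1a, Rcan1 and Thy1. The segment was taken from Lipi to Zbtb21 (chromosome 16, 75540514 to 97962622). Positions are from GENCODE release 21, which held 99.6% of the identifiers. Of 121 list genes, Dennd10 was not matched. P-values measure the spread between animals of these groups, and comparisons that share a control group are not independent.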

Additional observations from a re-analysis of the deposited data

Results flagged for a closer look

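Of 18 sets of values screened, each of 1 gene in 1 group of 4 or 5 animals, 1 held an animal far from the others. Synj1 was at 495 CPM in Dp16 tofacitinib library 1, below the 549 to 571 CPM of the other 4 Dp16 animals on tofacitinib and above every non-carrier. The gap to the nearest animal made up 0.714 of the group's range, just past the critical value of Dixon's test. Chance passes that value in about 1 of 20 sets, near the 1 of 18 found here, and the sets share animals. The same library had the highest Itsn1 of its group, at 319 CPM, and a Vps26c level of 42.4 CPM, within its group's range.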

How the results depend on the processing

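The segment effect of each of the 3 genes over all animals passed under each of 6 other settings and without any 1 library. Over 54 values of the 3 genes, 344 of 357 under other settings and 902 of 918 without 1 library kept their direction and their side of the threshold, small sign changes of uncalled values aside (76 in all). Groups with and without 5xFAD hold 3 to 5 animals. Calls changed mostly in the settings on the 5xFAD background, and the cause was not tested.

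In a fit on the compared groups alone, the sham values on that background were 0.63 for Itsn1 (adjusted p = 0.333) and 0.85 for Vps26c (adjusted p = 0.333), and the tofacitinib values were 0.73 for Synj1 (adjusted p = 0.102) and 0.58 for Vps26c (adjusted p = 0.289), none of them called. With no filter on low counts Synj1 in the sham setting was called at 0.53 (adjusted p = 0.00688). Without the 3 libraries low in hippocampal markers it was called at 0.67, while Vps26c at 0.46 was not. DESeq2 called Itsn1 in the tofacitinib setting, at 0.37.

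Uncalled values of Vps26c changed sign without those 3 libraries: -0.048 for the transgene over all animals, -0.20 for 5xFAD-Dp16 against Dp16 sham, 0.22 for tofacitinib in 5xFAD-Dp16 and 0.062 between the sexes. The Vps26c tofacitinib by segment interaction became 0.071. Synj1 values that changed sign were 0.016 for the segment by transgene interaction, -0.0031 for the tofacitinib by segment interaction, 0.082 for 5xFAD-Dp16 against Dp16 sham, -0.039 between the sexes and 0.0016 for the transgene. Those of Itsn1 were 0.0001 between the sexes and -0.0003 for tofacitinib in 5xFAD. Without 5xFAD-Dp16 sham library 4 alone, Vps26c was at -0.050 for the transgene, -0.21 for 5xFAD-Dp16 against Dp16 sham, 0.23 for tofacitinib in 5xFAD-Dp16 and 0.10 for the tofacitinib by segment interaction.

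Leaving out each library in turn gave 0.53 to 0.67 for Itsn1 and 0.46 to 0.92 for Vps26c in 5xFAD-Dp16 against 5xFAD sham. Under tofacitinib it gave 0.29 to 0.44 for Itsn1 and 0.53 to 0.69 for Vps26c. In Dp16 against WT sham it gave 0.61 to 0.73 for Synj1, 0.65 to 0.76 for Vps26c and -0.40 to -0.29 for Snx17. For Vps26c it gave -0.21 to 0.24 in 5xFAD-Dp16 against Dp16 sham, -0.23 to 0.23 for tofacitinib in 5xFAD-Dp16, -0.050 to 0.064 for the transgene and -0.13 to 0.10 for the tofacitinib by segment interaction. Genes called in the segment effect numbered 190 to 390, the highest without 5xFAD tofacitinib library 2.

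Counts over all genes moved more. The segment effect called 242 genes, 705 with no filter and 415 by DESeq2. The transgene effect called 279, and 884 with no filter. Tofacitinib called 0, 91 with no filter and 2 by DESeq2. With no filter, 1 synaptic vesicle gene was called for the segment and 4 for the transgene, and 1 fission and uncoating gene for the transgene. Snx17 in Dp16 against WT sham was not called with no filter (-0.33) or on the compared groups alone (-0.32).

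The replicate numbers did not pair the animals: in 0 of 12 comparisons was every pair's correlation over 0.1 (range -0.25 to 0.28), and in 0 of 12 did every sample correlate best with its own number. With the replicate block Vps26c in 5xFAD-Dp16 against 5xFAD under tofacitinib was 0.55 (adjusted p = 0.215), and Snx17 in Dp16 against WT sham was -0.33 (adjusted p = 0.0626).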
